A study of Sus scrofa with 32 samples.

Results

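The comparison described here is the effect of a maternal methyl-enriched diet on the early fetal pig liver, at 35 days post coitum (dpc). Its members are the 10 liver arrays labelled 35 dpc, 5 from offspring of gilts on the control gestation diet and 5 from offspring of gilts on the methyl-enriched diet, out of 32 arrays in all. All fetuses were of the Pietrain breed, each array holds total liver RNA, and the same 2 diets were also sampled at 63 dpc (6 and 6 arrays) and 91 dpc (5 and 5). The labels give neither the diets' composition nor the dam, litter or sex of a fetus, and the series' design text speaks of 5 to 6 gilts per stage. Fetuses that share a dam would make the p-values below too small, and p-values measure only the spread between these samples.

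A methyl-enriched diet supplies nutrients that feed one-carbon metabolism. Folate and betaine pass a carbon unit to homocysteine, which becomes methionine and then S-adenosylmethionine, the donor used by DNA, histone and small-molecule methyltransferases. The adult liver is the main site of this cycle. The fetal liver is at the same time a blood-forming organ, so that a whole-liver RNA sample mixes hepatoblasts with erythroid and other blood cells, and in such samples fewer cells of a type and less RNA per cell cannot be told apart.

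Defining liver and blood markers were present in both diets. AFP, the fetal serum protein made by hepatoblasts, read 15.75 ± 0.17 on the log2 scale (SD, n = 5) in the control group and 15.69 ± 0.16 in the methyl group. APOA1 read 15.93 ± 0.09 and 15.96 ± 0.15, and the erythroid heme enzyme ALAS2 read 14.21 ± 0.06 and 14.19 ± 0.14. All 24 markers measured, among them endothelial PECAM1, macrophage CD163 and the muscle genes CKM and TNNC2, lay above the array's 40th percentile on all 10 arrays. None was called, and the smallest unadjusted p-values were 0.0514 for HNF4A, the hepatocyte transcription factor (a difference of 0.26), and 0.0539 for TNNC2, fast muscle troponin C (0.86). A value throughout is a deposited log2 signal of a probe set, a group of short probes for 1 transcript, so that a difference of 1 is 2-fold.

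The diet groups did not stand apart as a whole. Arrays of different diet differed by a median of 0.31 per probe set whether or not they shared a spike-in batch, against 0.30 and 0.32 for arrays of the same diet. The first 3 principal components of the 10 arrays carried 33.7%, 17.9% and 10.04% of the variance, and the diets overlapped on each. A score of developmental position was built from 200 rising and 200 falling probe sets, picked for their change with age in these same arrays. Its rise from early to late fetal liver is therefore fixed by construction and is not a result. The score ran from -3.52 to -2.24 in control and from -3.67 to -2.32 in methyl arrays, so the diets overlapped. EIF1AY, a Y-linked gene, averaged 7.31 ± 0.70 in control and 6.27 ± 0.98 in methyl arrays (exact two-sided permutation test, p = 0.0873), and the smallest p that 5 against 5 arrays allow is 0.00794. It ran from 6.40 to 8.13 in control and from 4.69 to 7.25 in methyl arrays of 35 dpc. Control replicate 2 of 63 dpc and methyl replicates 4 and 5 of 91 dpc read 2.64. A gap between the spike-in controls bioC and bioB parted the 32 arrays into 18 with a large gap (1.36 to 1.89) and 14 with a small one (0.12 to 0.32). Each diet at 35 dpc had 3 high-gap arrays (replicates 1, 3 and 5) and 2 low-gap arrays (replicates 2 and 4).

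limma called 6 of 15327 probe sets at a Benjamini-Hochberg adjusted p under 0.05, which is 0.0391% of those tested, with 3 higher and 3 lower on the methyl diet. A single called probe set has gene symbols, that of the cytochrome P450 genes CYP4A21 and CYP4A24, and it was higher on the methyl diet. The other 5 carry no symbol and averaged under 4 in both groups, near the dim end of a scale that starts at 2.20. At an unadjusted p under 0.05, 430 probe sets were higher (2.81%) and 503 lower (3.28%), 933 in all, against 219 at 63 dpc and 1000 at 91 dpc. Over all probe sets the median difference was -0.02, and the median half-width of the 95% interval was 0.44, so that for a typical probe set a difference below about this size could not be told from the spread between arrays.

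**Figure D1:**
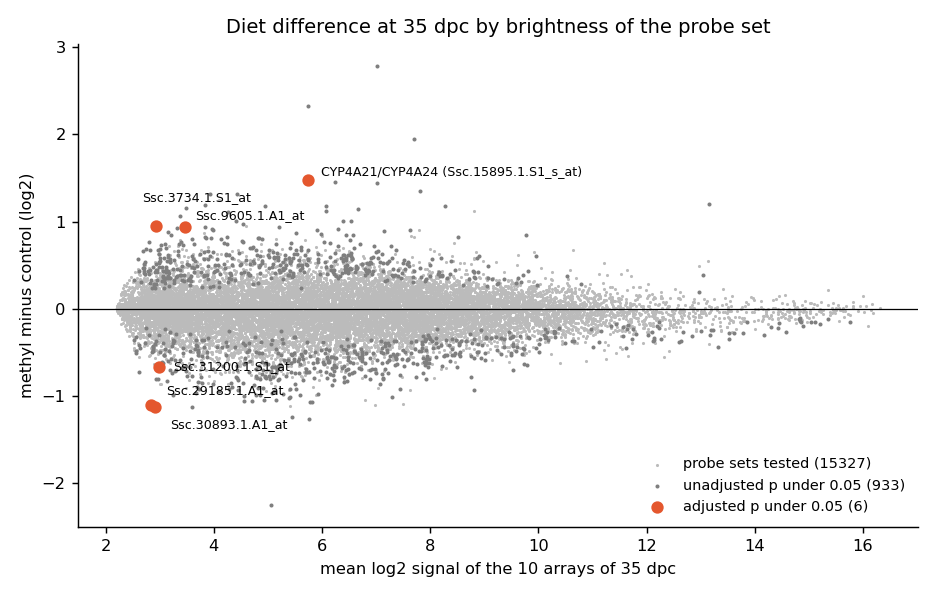
Each point is 1 of the 15327 probe sets tested. The x axis gives the mean log2 signal of the 10 arrays of 35 dpc and the y axis the methyl minus control difference (log2); the 6 called probe sets are in red, 5 of them at the dim end and the probe set of CYP4A21 and CYP4A24 at a difference of 1.47.

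CYP4A enzymes hydroxylate the end carbon of fatty acids, and the pig enzyme CYP4A21 takes part in making hyocholic acid, a bile acid typical of pigs. The called probe set, Ssc.15895.1.S1_s_at, is annotated with both CYP4A21 and CYP4A24, closely related genes, and its signal is assigned to neither. In RefSeq's order of genes LOC110255311, LOC100737897 and the pseudogene LOC100627844 lie between them. In control livers the probe set read 4.40, 5.18, 4.81, 5.67 and 4.95 (mean 5.00 ± 0.47, SD), and in methyl livers 5.74, 6.68, 6.93, 6.17 and 6.86 (6.48 ± 0.51). Every methyl array lay above every control array, although the lowest methyl array and the highest control array were only 5.74 and 5.67. The difference was 1.47 ± 0.28 (SE; 95% interval 0.90 to 2.05), or 2.78-fold, with an adjusted p of 0.0381 by limma.

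A second probe set of the same gene pair, Ssc.190.1.S1_at, had a larger difference and a wider spread. It read 2.89, 5.63, 4.91, 6.37 and 3.12 in control livers and 5.36, 7.43, 7.34, 7.28 and 7.15 in methyl livers. The groups overlapped in 1 methyl array, replicate 1, which lay below 2 control arrays. The difference of 2.33 ± 0.53 did not pass (adjusted p = 0.130 by limma). With the spike-in batch as a block it did (0.0338), and so did the first probe set (0.0351). Both differences were larger among high-gap arrays (1.79 and 2.98) than among low-gap arrays (0.998 and 1.36).

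The CYP4A call was close to the threshold, and its error was estimated from the arrays of all ages together. The SD within groups of the first probe set was 0.49 at 35 dpc and 0.45 at the later ages. The call was lost when any of 7 of the 10 arrays was left out, namely control replicates 1, 2, 3 and 5 and methyl replicates 2, 3 and 5. In these cases the adjusted p-values by limma ran from 0.0638 to 0.181 and the differences from 1.32 to 1.52. In a fit of the 35 dpc arrays alone, limma called no probe set and the adjusted p was 0.972; 550 probe sets had an unadjusted p under 0.05 in that fit. With EIF1AY as a covariate the adjusted p was 0.0784.

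The CYP4A pattern of 35 dpc was not repeated at the later ages. In control livers the first probe set read 5.00 at 35 dpc, 5.96 ± 0.53 at 63 dpc and 7.42 ± 0.48 at 91 dpc, while the methyl groups read 6.48, 5.44 ± 0.23 and 7.05 ± 0.49. The methyl minus control difference was -0.52 at 63 dpc and -0.38 at 91 dpc, and for the second probe set -0.72 and -0.83. The test of the 35 dpc effect against the mean of the later effects gave a difference of 1.92 ± 0.34 for the first probe set (adjusted p = 0.0587) and 3.10 ± 0.64 for the second (0.162), neither of them called. With the spike-in batch as a block both were called, each at an adjusted p of 0.0351. By limma, 0 of 15327 probe sets were called for this test of age, with 600 at an unadjusted p under 0.05 (3.91%).

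**Figure D2:**
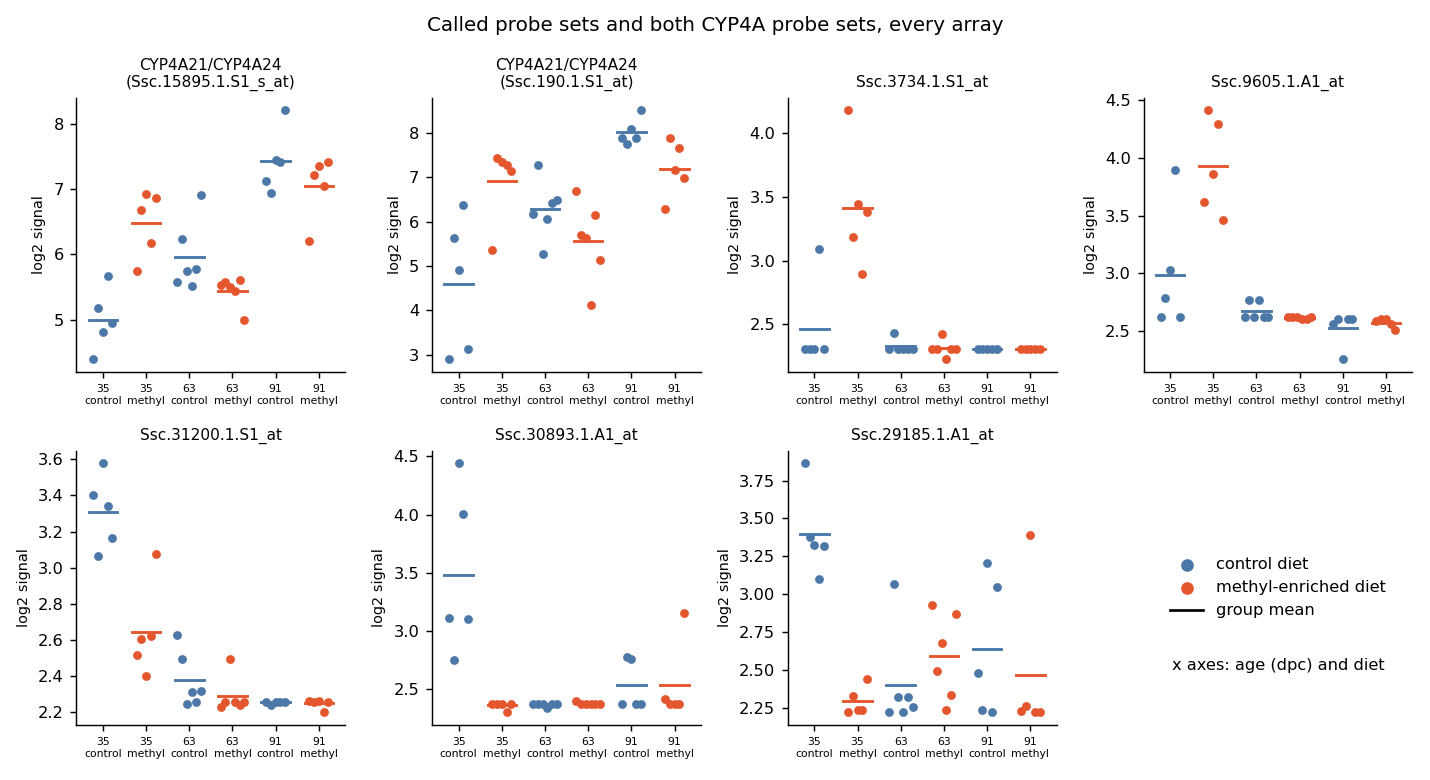
Log2 signal of the 6 called probe sets and of the second CYP4A probe set in all 32 arrays, by age (dpc) and diet; each point is an array and each line a group mean. For the first CYP4A probe set all 5 methyl arrays of 35 dpc lie above the 5 control arrays, and most arrays of 63 and 91 dpc sit near the lowest values for the probe sets without a symbol, except for Ssc.29185.1.A1_at, whose later arrays are spread out.

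None of the genes that work beside the CYP4A enzymes was called. Of 36 measured genes of fatty acid oxidation and PPAR alpha, the nuclear receptor that drives CYP4A genes in the liver, 0 were higher and 1 was lower at an unadjusted p under 0.05. That is 2.78% lower, against 4.11% of all named genes, and the list's median difference was -0.09. The lower gene was ACADM, the medium-chain acyl-CoA dehydrogenase (9.96 and 9.44, a difference of -0.52 ± 0.23). CPT1A, which brings long-chain fatty acids into mitochondria, read 7.02 ± 0.15 and 7.39 ± 0.35 (unadjusted p = 0.0623). Among 8 genes of bile acid synthesis and transport, the canalicular bile salt pump ABCB11 read 3.73 ± 0.49 and 4.53 ± 0.35, a difference of 0.80 ± 0.29 (adjusted p = 0.664).

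Of the 5 called probe sets without a symbol, 2 were higher on the methyl diet. Ssc.3734.1.S1_at read 2.31, 2.30, 2.31, 3.09 and 2.31 in control livers and 4.18, 3.18, 3.45, 2.89 and 3.38 in methyl livers, a difference of 0.95 ± 0.15 (adjusted p = 0.00777). A value of 2.31 is also what all 10 arrays of 91 dpc showed, so 4 control arrays sat near the bottom of this probe set's range, and control replicate 4 overlapped the methyl group. Ssc.9605.1.A1_at read 2.62, 2.78, 3.03, 3.89 and 2.62 in control and 3.62, 4.41, 3.86, 4.29 and 3.46 in methyl livers, a difference of 0.94 ± 0.17 (adjusted p = 0.0271). Control replicate 4 again lay within the methyl range.

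These probe sets were dim enough for the filter to matter. Ssc.3734.1.S1_at exceeded its array's 40th percentile on 5 methyl arrays and 1 control array of 35 dpc and on 0 of the 22 later arrays, so it entered the test through the group in which it was high. Ssc.9605.1.A1_at exceeded the limit on 5 methyl arrays, 3 control arrays and 1 of the 22 later arrays. Without its methyl group it would also have missed the filter's 5 arrays. With dimmer values set to the limit, the difference was 0.54 for Ssc.3734.1.S1_at and 0.87 for Ssc.9605.1.A1_at. In high-gap and low-gap arrays the measured differences were 1.36 and 0.34 for Ssc.3734.1.S1_at (adjusted p = 0.00398 and 1) and 0.89 and 1.01 for Ssc.9605.1.A1_at (0.0299 and 1).

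The other 3 called probe sets were lower on the methyl diet. Ssc.31200.1.S1_at read 3.40, 3.06, 3.58, 3.34 and 3.16 in control livers against 2.52, 2.61, 2.40, 2.62 and 3.08 in methyl livers, a difference of -0.66 ± 0.11 (adjusted p = 0.00777), with methyl replicate 5 inside the control range. Ssc.30893.1.A1_at ran from 2.75 to 4.44 in control livers, while 4 methyl arrays read 2.37 and the fifth 2.30, without overlap. Ssc.29185.1.A1_at read 3.86, 3.38, 3.32, 3.10 and 3.32 in control livers and 2.22, 2.33, 2.24, 2.24 and 2.44 in methyl livers, also without overlap. The differences of the last 2 were -1.12 ± 0.20 and -1.10 ± 0.22 (adjusted p = 0.0187 and 0.0428). No methyl array of either was above its array's 40th percentile, so that, with the methyl arrays set to that limit, the control livers were at least 1.55-fold and at least 1.46-fold brighter. Ssc.31200.1.S1_at exceeded the limit on 5 control arrays, 1 methyl array and 0 of the 22 later arrays. Ssc.30893.1.A1_at exceeded it on 4 control arrays, 0 methyl arrays and 1 later array. Both thus entered the test through the group in which they were high, whereas Ssc.29185.1.A1_at also exceeded the limit on 6 later arrays. With dimmer values set to the limit, the difference of Ssc.31200.1.S1_at was -0.43. Among high-gap and low-gap arrays the measured differences were -0.72 and -0.59 for Ssc.31200.1.S1_at, -1.18 and -1.04 for Ssc.30893.1.A1_at and -1.20 and -0.96 for Ssc.29185.1.A1_at, with adjusted p-values from 0.150 to 1.

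For 4 of these dim probe sets the arrays of the later ages varied far less than those of 35 dpc, and the fit shares 1 spread between them. The SD within groups of Ssc.3734.1.S1_at was 0.42 at 35 dpc and 0.04 at the later ages, and that of Ssc.9605.1.A1_at was 0.48 and 0.09. Ssc.31200.1.S1_at (0.23 and 0.09) and Ssc.30893.1.A1_at (0.50 and 0.20) were alike in this, while Ssc.29185.1.A1_at varied more at the later ages (0.21 and 0.41). From the 35 dpc arrays alone the adjusted p was 0.972 for the first 4 and 0.0741 for Ssc.29185.1.A1_at. Leaving out 1 array at a time, Ssc.3734.1.S1_at, Ssc.31200.1.S1_at and Ssc.30893.1.A1_at stayed called in all 10 cases. Ssc.9605.1.A1_at was lost in 6 cases, without control replicates 1, 2 or 5 or methyl replicates 2, 3 or 4 (adjusted p 0.0533 to 0.121). Ssc.29185.1.A1_at was lost in 9, in each but the one without control replicate 4 (0.0599 to 0.129).

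Groups that did not overlap were rare. All 5 methyl arrays lay above all 5 control arrays for 23 probe sets (0.15%) and below them for 25 (0.163%), 3 of the 48 being called. Among genes of the lists read here, DIRAS3, ASNS, SPP1 and COX7C lay below and GATA4 and CRY2 above, and none of the 6 was called.

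No gene named by a symbol of its own was called. Of 5594 named genes, each read by its brightest probe set, 127 were higher (2.27%) and 230 lower (4.11%) at an unadjusted p under 0.05. After quantile normalization of the arrays the split was 162 higher and 186 lower, and the median difference of named genes went from -0.03 to 0.01. With 1 array left out the split ran from 162 higher and 470 lower, without control replicate 3, to 186 higher and 144 lower, without methyl replicate 5; without control replicate 4 it was 202 and 390, without control replicate 5 it was 117 and 140, and without methyl replicate 1 it was 103 and 136. Bright genes leaned lower. Among probe sets with a mean over 12, 3 were higher and 38 lower at an unadjusted p under 0.05, with a median difference of -0.05 that was -0.011 after quantile normalization, whereas among those under 4 the counts were 148 and 82.

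The 12 named genes with the smallest p among those higher on the methyl diet were MICALL2, XIRP1, CDHR4, MAP2K6, TMEM87B, C7H6orf47, GNMT, PCNX4, CHTF18, LMF2, DCAF15 and SCMH1. PCNX4 exceeded its array's 40th percentile at 35 dpc only on methyl replicates 1, 3 and 4. At 63 dpc it did so only on control replicate 5 and methyl replicate 3, and at 91 dpc on no array. PCNX4 thus entered the test through the group in which it was high. MICALL2, an adaptor of the RAB13 GTPase at cell junctions, read 5.78, 5.93, 6.37, 5.76 and 5.33 in control and 7.36, 6.56, 6.84, 6.11 and 6.89 in methyl livers. Its difference of 0.92 ± 0.20 (1.89-fold) had an adjusted p of 0.0991, and only methyl replicate 4 fell below the highest control array. MAP2K6, the kinase that activates p38, read 4.44 ± 0.28 and 5.11 ± 0.30, a difference of 0.67 ± 0.17 (adjusted p = 0.266). LMF2, related to a lipase maturation factor, read 6.15 ± 0.25 and 6.73 ± 0.46, and CHTF18, part of a DNA clamp loader, 3.51 ± 0.54 and 4.43 ± 0.73. TMEM87B, C7H6orf47, DCAF15 and SCMH1 held repeated values: the SD of the methyl group of TMEM87B and of the control groups of C7H6orf47, DCAF15 and SCMH1 lay between 0.00 and 0.07. Values also recurred in some arrays of other genes. MAP2K6 read 4.92 in control replicate 2 and methyl replicates 1 and 4, and LMF2 5.97 in control replicates 3 and 5. CHTF18 read 3.08 in control replicates 2 and 5, and PCNX4 2.39 in control replicate 3 and methyl replicate 2.

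The 12 with the smallest p among those lower were VSIG2, MRPS35, KLRK1, DIRAS3, SLC46A2, CCDC80, ATP6AP2, ZC3H14, CXCL12, VLDLR, AUH and TWISTNB. VSIG2, a membrane protein with immunoglobulin domains, read 3.10, 3.27, 3.69, 3.23 and 3.54 in control and 2.59, 2.40, 2.59, 2.59 and 2.60 in methyl livers, without overlap, and its adjusted p was 0.0913. Its methyl arrays were all under the 40th percentile, so the control livers were at least 1.43-fold brighter. Of the later arrays, only control replicate 1 (3.68) and methyl replicate 3 (2.87) of 63 dpc and control replicate 4 of 91 dpc (3.09) exceeded that limit. VSIG2 thus entered the test through the group in which it was high. So did SLC46A2, which exceeded the limit on control replicates 1, 2, 3 and 5 and methyl replicate 3 of 35 dpc. Of the later arrays, SLC46A2 exceeded it only on control replicates 2, 3 and 4 of 63 dpc. After quantile normalization VSIG2 passed (-0.96, adjusted p = 0.0189). MRPS35, a protein of the small mitochondrial ribosome subunit, read 6.09 ± 0.45 and 5.10 ± 0.58, and KLRK1, the activating receptor NKG2D of killer lymphocytes, 5.06 ± 0.65 and 4.06 ± 0.71. CCDC80, a secreted matrix protein, had the largest difference of the 12, at -1.27 ± 0.36 (adjusted p = 0.467), with control livers at 7.17, 6.44, 5.49, 6.34 and 6.53 and methyl livers at 5.09, 4.37, 5.30, 5.80 and 5.09. CXCL12, the chemokine that holds blood stem cells in their niche, read 10.85 ± 0.24 and 10.48 ± 0.15. ATP6AP2, a partner of the proton pump of lysosomes, read 9.74 ± 0.35 and 9.23 ± 0.18.

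**Figure D3:**
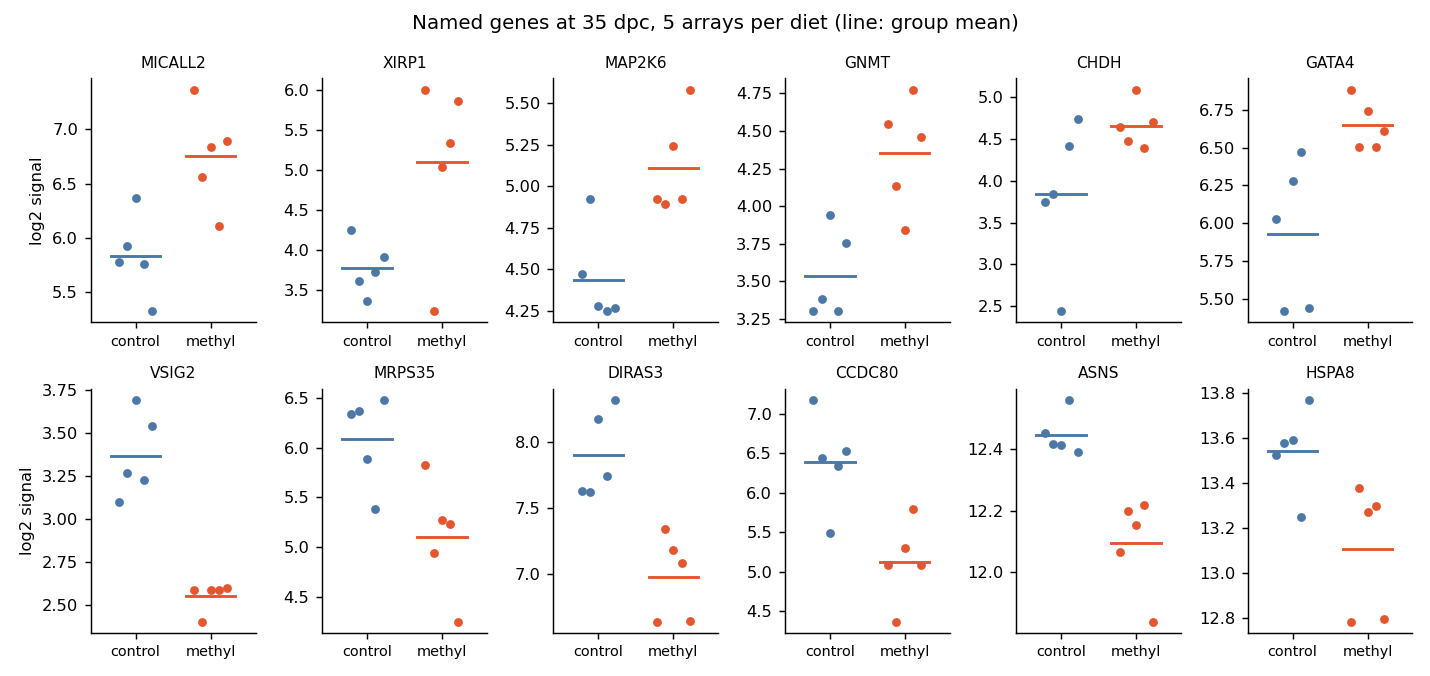
Log2 signal at 35 dpc of 12 genes that the text describes, 5 control and 5 methyl arrays each; lines are group means and each panel has its own y axis. DIRAS3, ASNS and VSIG2 (lower) and GATA4 (higher) show no overlap between diets, and in the other 8 panels the groups overlap.

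In the methionine cycle, 8 of 12 listed genes were measured, none was called, and the median difference was 0.00. At an unadjusted p under 0.05, 1 was higher (12.5%, against 2.27% of all named genes) and none lower. The higher gene was GNMT, glycine N-methyltransferase, the enzyme that spends surplus S-adenosylmethionine on glycine. It read 3.30, 3.38, 3.94, 3.30 and 3.76 in control livers and 4.55, 4.13, 3.84, 4.78 and 4.46 in methyl livers, with methyl replicate 3 inside the control range. The difference was 0.81 ± 0.23 (95% interval 0.35 to 1.27; unadjusted p = 0.00111, adjusted p = 0.427), and it was positive in high-gap arrays (0.62) and low-gap arrays (1.11). The probe set was dim at 35 dpc and dimmer at the later ages, where arrays read 2.20 to 3.65. The groups differed there by 0.06 at 63 dpc and 0.20 at 91 dpc, and the limma test against the later ages gave an adjusted p of 0.997.

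The other members of the cycle had unadjusted p-values of 0.0510 or more. MAT1A, the synthetase of the mature liver, read 12.07, 11.998, 11.46, 12.09 and 11.77 in control and 12.11, 11.76, 12.06, 11.96 and 11.65 in methyl livers, and its difference of 0.03 had a 95% interval from -0.20 to 0.26. AHCY, which releases homocysteine, differed by 0.04 (-0.29 to 0.37) in its brightest probe set and by 0.83 ± 0.62 in another, MAT2A, the synthetase of other tissues, by -0.03 (-0.35 to 0.30), and MAT2B, its regulatory subunit, by 0.05 (-0.34 to 0.44). BHMT, which methylates homocysteine with betaine, read 9.63 ± 0.39 and 9.34 ± 0.61, a difference of -0.29 with a wider interval (-0.95 to 0.36). MTR, the folate-dependent methionine synthase, was dim (2.95 and 2.83), and ADK, which removes adenosine, read 8.16 ± 0.41 and 7.54 ± 0.60 (-1.24 to 0.00). The signs of MAT1A, AHCY, MAT2A and MAT2B changed between the arrays of the large and of the small spike-in gap.

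Choline and betaine genes gave 1 higher (9.09%, against 2.27% of all named genes) and no lower of 11 measured at an unadjusted p under 0.05. CHDH, choline dehydrogenase, which starts the conversion of choline to betaine in mitochondria, read 3.75, 3.84, 2.44, 4.41 and 4.74 in control and 4.64, 4.48, 5.09, 4.39 and 4.70 in methyl livers. Control replicate 3 was the lowest of the 10 arrays, and 2 control arrays lay inside the methyl range. The difference was 0.82 ± 0.26 (adjusted p = 0.584), and 2 other CHDH probe sets gave 0.19 and -0.18. Without control replicate 3 it was 0.48. PEMT, which makes phosphatidylcholine by methylation, read 12.60 ± 0.08 and 12.75 ± 0.30.

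The folate list gave no member past an unadjusted p under 0.05 in either direction among 16 measured, and neither did the list for vitamins B12 and B6 and zinc among 13. The lowest p-values were those of SLC46A1, the intestinal folate carrier (7.68 and 7.98, a difference of 0.30 ± 0.15), and of MUT, the B12-dependent methylmalonyl-CoA mutase (6.32 and 5.98, -0.34 ± 0.19). GART and ATIC, enzymes of purine synthesis that use folate carbons, differed by -0.32 ± 0.19 and -0.22 ± 0.13. In the transsulfuration route, where homocysteine leaves the cycle, CTH, cystathionine gamma-lyase, was the single gene of 8 measured past that threshold. That is 12.5% lower, against 4.11% of all named genes. CTH read 10.42, 10.31, 9.68, 10.48 and 10.38 in control and 9.83, 9.63, 9.59, 9.99 and 9.76 in methyl livers, a difference of -0.49 ± 0.17 (adjusted p = 0.609), with control replicate 3 within the methyl range.

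The enzymes that place methyl groups on DNA showed no diet difference beyond the spread. DNMT1, the maintenance methyltransferase, read 10.70 ± 0.43 and 10.57 ± 0.16, DNMT3A 7.18 ± 0.42 and 7.36 ± 0.45, and DNMT3B 4.97 ± 0.66 and 4.81 ± 0.58. Their differences were -0.13 (95% interval -0.49 to 0.23), 0.18 (-0.35 to 0.71) and -0.15 (-0.86 to 0.55). Of 10 measured genes of DNA methylation and demethylation, 1 was lower at an unadjusted p under 0.05 (10%, against 4.11% of all named genes). It was GADD45A, a stress gene linked to demethylation, at 10.21 ± 0.38 and 9.86 ± 0.21 (-0.35 ± 0.15, adjusted p = 0.764). Of 7 small-molecule methyltransferases, GNMT was the single member past that threshold (14.3% higher, against 2.27% of all named genes). INMT, GAMT, ICMT, COQ5 and PCMT1 differed by 0.33, 0.12, 0.07, -0.17 and -0.25, each with a 95% interval that includes 0.

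**Figure D4:**
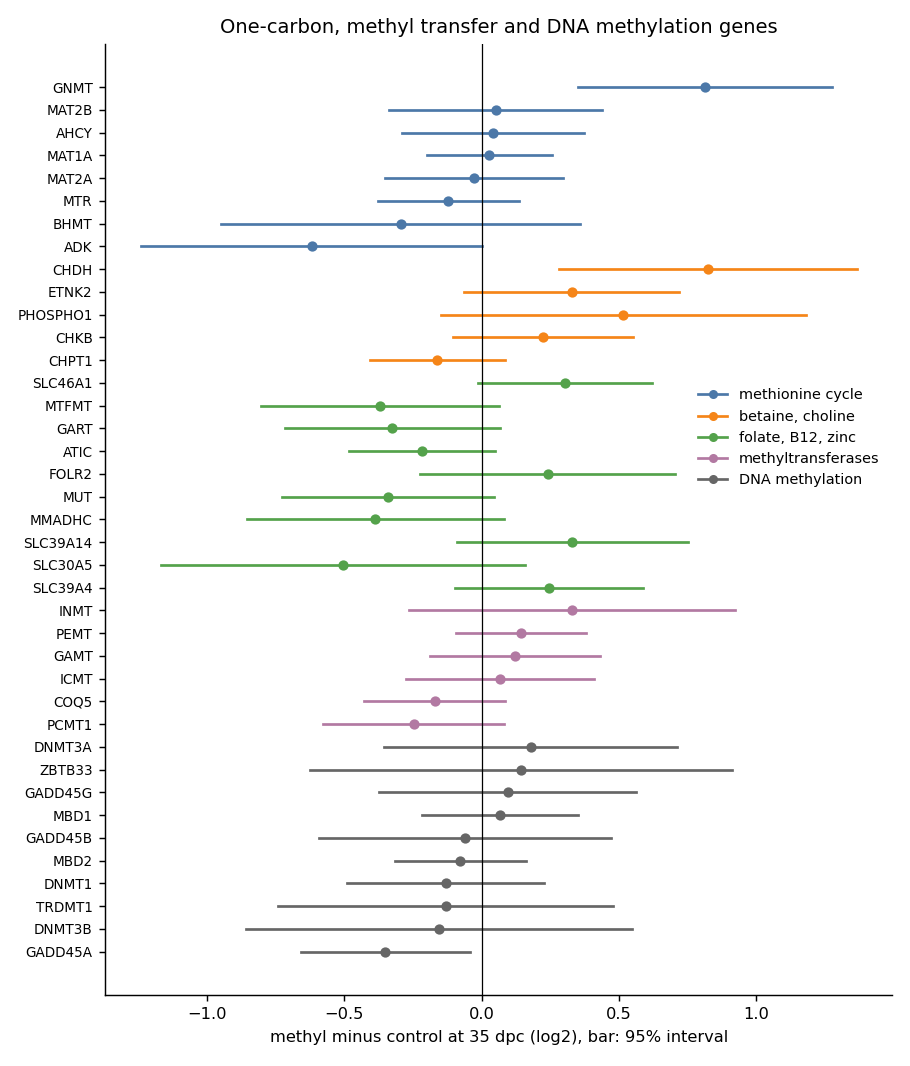
Methyl minus control difference at 35 dpc (log2) for genes of the methionine cycle, choline and betaine, folate, B12 and zinc, methyl transfer and DNA methylation; points are differences and bars 95% intervals from the fit. The intervals of GNMT (0.35 to 1.27) and CHDH (0.28 to 1.37, with control replicate 3 included) lie above 0, that of GADD45A (-0.66 to -0.04) below 0, and the others include 0.

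Imprinted genes, which are expressed from 1 parental copy according to DNA methylation, gave 2 lower and no higher of 17 measured at an unadjusted p under 0.05. That is 11.8% lower against 4.11% over all named genes, with none called and a median difference of -0.05. DIRAS3, an imprinted small GTPase with growth-limiting activity, read 7.63, 7.62, 8.18, 7.75 and 8.32 in control and 6.64, 7.34, 7.18, 7.09 and 6.64 in methyl livers. Every methyl array was below every control array. The difference was -0.92 ± 0.24 (1.89-fold, 95% interval -1.41 to -0.43, adjusted p = 0.293), at -1.22 among high-gap and -0.47 among low-gap arrays. At 63 and 91 dpc it was 0.04 and -0.06, and the test against the later ages gave an unadjusted p of 0.00364 and an adjusted p of 0.997. INPP5F, a phosphoinositide phosphatase, read 4.82 ± 0.41 and 4.02 ± 0.87 (-0.80 ± 0.36).

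IGF2, the imprinted growth factor of the fetus, was near the top of the scale with its brightest probe set, at 14.51, 14.37, 14.52, 14.58 and 14.45 in control and 14.81, 14.56, 14.86, 14.51 and 14.46 in methyl livers. The difference of 0.16 ± 0.11 did not pass. The 8 other IGF2 probe sets, which share sequence and are not independent, gave differences from -0.04 to 0.63, and 1 of them, Ssc.9365.3.S1_x_at, had an unadjusted p of 0.0182 (0.39 ± 0.16). IGFBP2, a binding protein of this growth factor, had a difference of 1.45 ± 0.54 (adjusted p = 0.694) that came from 2 arrays. Methyl replicates 2 and 3 read 9.997 and 10.18, while the other 3 methyl arrays (6.84, 6.18 and 5.53) lay in or below the control range of 5.92 to 6.92. The SD within groups of IGFBP2 was 1.57 at 35 dpc and 0.35 at the later ages, and the SE rests on 1 spread shared between them. IGF1 (3.74 and 3.50) and IGFBP1 (11.63 and 11.54) differed by less than their spread.

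Chaperone genes leaned lower on the methyl diet without a call. Of 17 heat shock proteins and their regulators measured, 5 were lower and 0 higher at an unadjusted p under 0.05, 13 differences were negative, and the median was -0.27, against 4.11% lower and a median of -0.03 over all named genes. The 5 were HSPA8, HSPE1, DNAJA1, HSP90AA1 and HSPD1. HSPA8, the constitutive cytosolic HSP70, read 13.53, 13.58, 13.59, 13.25 and 13.77 in control and 12.79, 13.38, 13.27, 13.30 and 12.80 in methyl livers (-0.44 ± 0.14, adjusted p = 0.582). HSPE1 and HSPD1, the 2 parts of the mitochondrial chaperonin, differed by -0.30 ± 0.09 and -0.45 ± 0.19, DNAJA1, a co-chaperone of HSP70, by -0.45 ± 0.17, and HSP90AA1 by -0.37 ± 0.16. Dimmer HSPA8 probe sets differed by -0.30 ± 0.15, 0.04 ± 0.24 and 0.04 ± 0.14, and a dimmer DNAJA1 probe set by -0.04 ± 0.25. Methyl replicates 1 and 5 were the 2 lowest arrays for the brightest HSPA8 probe set and for HSPE1. Among arrays of the large spike-in gap the median was -0.36 with 5 members lower, and among those of the small gap -0.07 with 0. The median stayed between -0.18 and -0.29 when any 1 array was left out. The count fell to 2 without control replicate 5 and to 3 without control replicates 1 or 2 or methyl replicates 1 or 5.

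Genes of the endoplasmic reticulum stress and amino acid response gave 3 lower (13.6%, against 4.11% of all named genes) and 0 higher of 22, with a median of -0.19. Among high-gap arrays 4 were lower and among low-gap arrays 0. ASNS, asparagine synthetase, read 12.45, 12.42, 12.41, 12.56 and 12.39 in control and 12.07, 12.20, 12.15, 12.22 and 11.84 in methyl livers, a small difference without overlap (-0.35 ± 0.11, adjusted p = 0.582). VLDLR, a lipoprotein receptor induced in this response, read 5.47 ± 0.35 and 4.79 ± 0.30, and XBP1, its transcription factor, 11.87 ± 0.11 and 11.63 ± 0.21. ATF4 and the chaperone HSPA5 differed by -0.19 ± 0.15 and -0.27 ± 0.18. The count of lower members was 6 without control replicate 3 and between 2 and 3 without any other array.

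Cytosolic ribosomal proteins gave 7 lower and 0 higher of 59 at an unadjusted p under 0.05 with a median of -0.05, which is 11.9% lower against 4.11% and a median of -0.03 over all named genes. These genes are bright, and among all probe sets with a mean over 12, 38 of 391 were lower, with a median of -0.05 as well. The list was thus close to other probe sets of its level. Among high-gap arrays 13 were lower with a median of -0.08, and among low-gap arrays 0 with a median of 0.0094. The 3 with the smallest p were RPS24 (-0.22 ± 0.10), RPL9 (-0.20 ± 0.09) and RPS6 (-0.16 ± 0.07). A dimmer RPS6 probe set differed by 0.52 ± 0.34. Methyl replicates 1 and 5 were the lowest: the brightest RPS6 probe set read 14.15 and 14.14 in them, and 14.53, 14.40 and 14.58 in the other methyl arrays, against 14.44 to 14.64 in control livers. Without methyl replicate 5 there were 0 lower and 2 higher, and the median was 0.01. After quantile normalization there were 0 lower and 0 higher. The mean level of the 59 genes ran from 14.11 to 14.17 in control and from 13.86 to 14.17 in methyl arrays. Without methyl replicate 1 the count was 2 lower, without control replicates 1, 2, 4 or 5 it was 4, and without methyl replicates 2 or 3 it was 12.

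Amino acid breakdown gave 3 lower (10%, against 4.11% of all named genes) and 0 higher of 30 with a median of -0.15. ARG1, the last enzyme of the urea cycle, read 12.30 ± 0.17 and 11.97 ± 0.24 (-0.34 ± 0.11, adjusted p = 0.627), CPS1, its first enzyme, 11.23 ± 0.56 and 10.79 ± 0.11, and BCKDHB, of branched-chain amino acid breakdown, 10.46 ± 0.14 and 10.14 ± 0.26. Quantile normalization left 1 lower and 1 higher, and without control replicate 3 there were 5 lower. In oxidative phosphorylation 3 of 59 were lower, or 5.08%, close to the 4.11% over all named genes, among them COX6C of cytochrome oxidase (13.34 ± 0.12 and 13.10 ± 0.13), and the median of -0.05 became 0.02 after quantile normalization and also without methyl replicate 5. The count of lower members was 1 without control replicate 5, 5 without control replicates 2 or 4 or methyl replicate 2, and 6 without methyl replicate 4.

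Of 15 hepatocyte transcription factors, 1 was higher at an unadjusted p under 0.05 (6.67%, against 2.27% of all named genes) and none lower, with a median of 0.09. GATA4, a factor of the early liver and its mesenchyme, read 6.03, 5.42, 6.28, 6.47 and 5.44 in control and 6.88, 6.504, 6.74, 6.504 and 6.61 in methyl livers, without overlap (0.72 ± 0.24, adjusted p = 0.594). HNF4A read 10.72 ± 0.14 and 10.98 ± 0.26 (unadjusted p = 0.0514). Of 16 genes of glucocorticoid response and clock, 3 were higher (18.8%, against 2.27% of all named genes) and 0 lower. They were TSC22D3, the glucocorticoid-induced leucine zipper (8.90 ± 0.16 and 9.25 ± 0.15), and the clock genes PER1 (0.37 ± 0.18) and DBP (0.24 ± 0.12). The list's median was 0.04, and 1 member was higher without control replicates 1, 2 or 5 or methyl replicates 1, 3 or 5. The median was -0.04 and -0.02 without control replicate 2 and methyl replicate 3.

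Cholesterol synthesis showed opposite signs within the list. Its regulators SREBF2 (0.39 ± 0.17) and SCAP (0.36 ± 0.17) were the 2 members higher of 14 at an unadjusted p under 0.05 (14.3%, against 2.27% of all named genes). In contrast, 11 members had negative differences, among them the synthase HMGCS1 (-0.50 ± 0.25, unadjusted p = 0.0526 by limma), and the median was -0.13. Neither regulator passed without control replicates 1 or 2 or methyl replicates 1 or 3, and without control replicate 3 there were 1 higher and 4 lower. AGPAT2, which makes phosphatidic acid for lipid storage, read 7.04 ± 0.23 and 7.71 ± 0.44 (0.68 ± 0.22, adjusted p = 0.584).

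Muscle genes leaned higher on the methyl diet without a call. Of 14 measured, 2 were higher (14.3%, against 2.27% of all named genes) and 0 lower at an unadjusted p under 0.05. In the list 11 differences were positive, and the median was 0.32. XIRP1, an actin-binding protein of striated muscle, read 4.25, 3.62, 3.36, 3.73 and 3.92 in control and 6.00, 3.24, 5.04, 5.33 and 5.86 in methyl livers, so that 4 methyl arrays lay above all controls and replicate 2 below them. The difference was 1.32 ± 0.31 (adjusted p = 0.174), and without methyl replicate 2 it was 1.78 with an adjusted p of 3.29e-05 by limma. Both p-values rest on 1 spread shared with the later ages, whose arrays varied less. With all arrays, the SD within groups of XIRP1 was 0.82 at 35 dpc and 0.28 at the later ages. TNNC1, troponin C of slow and heart muscle, read 5.64 ± 0.64 and 6.41 ± 0.50, and TNNC2, that of fast muscle, 3.39 ± 0.53 and 4.25 ± 0.85. The mean level of the 14 genes ran from 4.87 to 5.61 in control and from 5.32 to 6.18 in methyl arrays. Without methyl replicate 1 the median was 0.07 and 1 gene was higher, and without control replicate 1 they were 0.15 and 1. Without methyl replicate 5, 4 genes were higher. Over 14 alternatives of scaling, batch and left-out arrays, the median ran from 0.07 to 0.39 and the count of higher members from 0 to 4. The part of muscle tissue in any result was not tested.

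**Figure D5:**
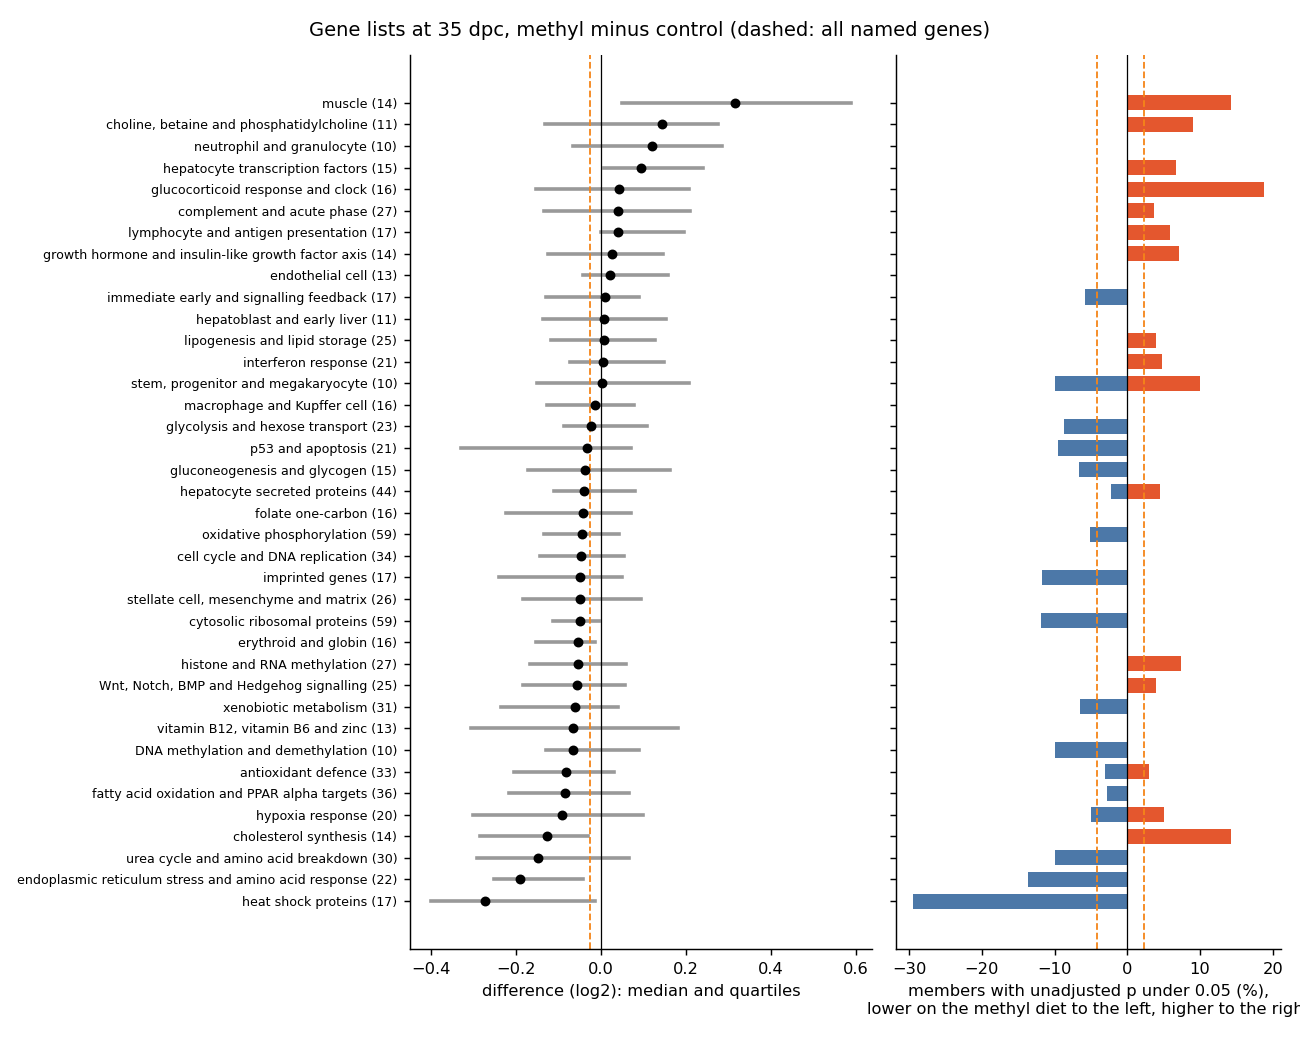
Gene lists with at least 10 measured members (number in brackets), methyl minus control at 35 dpc. Left, median and quartiles of the members' log2 differences; right, percent of members with an unadjusted p under 0.05, lower to the left and higher to the right, with dashed lines for all named genes (4.11% lower, 2.27% higher). Heat shock proteins have the lowest median (-0.27) and muscle genes the highest (0.32).

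Over the 46 lists, 857 genes were measured, none was called, and 24 were higher (2.8%) and 34 lower (3.97%) at an unadjusted p under 0.05, close to the 2.27% and 4.11% over all named genes. The split became 34 higher and 18 lower after quantile normalization. The erythroid and globin list gave 0 of 16 past that threshold, with HBB at 6.55 ± 0.86 and 6.11 ± 0.44 and the embryonic globin HBE1 at 9.10 ± 0.50 and 9.43 ± 0.57. EPO, the hormone of red cell production, read 5.93 ± 1.33 and 6.46 ± 0.39. The cell cycle and DNA replication list gave 0 of 34, macrophage and Kupffer cell genes 0 of 16, and stellate cell and matrix genes 0 of 26.

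At 63 dpc limma called 0 probe sets, with 219 at an unadjusted p under 0.05, and at 91 dpc it called 11. Differences over 1 numbered 44 at 35 dpc, 11 at 63 dpc and 65 at 91 dpc. Of the 430 probe sets higher at 35 dpc at an unadjusted p under 0.05, 238 (55.3%) were above 0 at 63 dpc and 229 (53.3%) at 91 dpc, where 58% and 42.2% of all probe sets were. Of the 503 lower ones, 236 (46.9%) and 335 (66.6%) were below 0.

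The named genes with the smallest p for a diet effect at 35 dpc unlike that of the later ages were XIRP1, CCDC80, CDHR4, KLRK1, SORBS2, RPS6KC1, MICALL2 and CHTF18. SORBS2, an adaptor of the actin skeleton, differed by 1.15 ± 0.36 at 35 dpc, -0.12 at 63 dpc and -0.66 at 91 dpc. CCDC80 differed by -1.27, 0.24 and 0.66, and RPS6KC1, a kinase-like protein, by -0.77, 0.29 and 0.26. The lowest adjusted p among these 8 for the test against the later ages was 0.609, that of XIRP1.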

How the data were processed

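Liver RNA of 32 fetuses was read on Affymetrix porcine arrays. The deposited values are log2 signals per probe set and array; the tool listed, per the submitters' processing notes, is GCOS 1.1.1, and the normalization is not given in the sources used here. Depth does not apply to arrays, and the number of arrays limits the precision. Groups came from the labels. Of 23999 probe sets that are not controls, 15327 were tested, those that in 5 or more arrays exceeded the array's own 40th percentile, which ran from 2.74 to 2.93. limma 3.58.1 in R 4.3.3 fitted the 6 groups of age and diet together (trended eBayes, 26 residual degrees of freedom), with Benjamini-Hochberg adjustment over all probe sets. Methyl minus control at 35 dpc was the comparison, and its difference from the mean of the 63 and 91 dpc effects the test of age. The procedure was tested on simulated data.

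Symbols came from the platform annotation: 7625 tested probe sets had 1 symbol, 152 several and 7550 none, and the brightest probe set with 1 symbol stood for each of 5594 genes. RefSeq gave names and neighbours only. Named were all called probe sets, the 12 genes each way with the smallest p, up to 3 members per list with an unadjusted p under 0.05, all measured members of the 3 methylation lists, up to 5 by p of the folate, choline, vitamin B12 and imprinted lists, a fixed set of liver and growth genes, the 8 genes with the smallest p in the test of age, and all CYP4A probe sets. HMGCS1, CPT1A, HNF4A, TNNC2, ATF4, HSPA5, HSP90AA1, HSPD1, SPP1, COX7C and CRY2 were named from the lists after their values were seen. The members and lists were chosen with earlier results of these data known. Alternatives changed the spread model, filter, scaling, weights, arrays, spike-in batch and covariates, and left out each array. For the gene lists, the alternatives of scaling, batch, weights and arrays were chosen after seeing the data.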

Additional observations from a re-analysis of the deposited data

Results flagged for a closer look

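In 290 groups of arrays tested, 27 held 1 array far from the rest by Dixon's criterion at its 95% critical value, where chance gives about 1 in 20. In 18 of the 27 all other arrays lay within 0.05 of each other, so a small step sufficed. Among called probe sets at 35 dpc, Ssc.3734.1.S1_at read 3.09 in control replicate 4 against 2.30 to 2.31 in the others, and Ssc.30893.1.A1_at read 2.30 in methyl replicate 4 against 2.37.

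The second CYP4A probe set, Ssc.190.1.S1_at, read 5.36 in methyl replicate 1 against 7.15 to 7.43. CTH read 9.68 in control replicate 3 against 10.31 to 10.48, and GADD45B, a stress gene, read 6.10 in the same array against 4.03 to 4.42. IGF1 read 4.33 in methyl replicate 1 against 3.21 to 3.35. DCAF15 read 7.71 in methyl replicate 5 against 6.53 to 6.86, and 6.42 in control replicate 5 against 6.42 in the others. RPS6KC1 read 4.30 in control replicate 1, SLC39A14, a zinc transporter, 6.46 in methyl replicate 2, and PEMT 12.74 in control replicate 4. VSIG2 read 2.40 in methyl replicate 2, TMEM87B 5.15 in methyl replicate 4, C7H6orf47 4.10 in control replicate 2, SLC46A2 2.83 in methyl replicate 3 and MTR 2.85 in methyl replicate 5.

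At the later ages Ssc.3734.1.S1_at read 2.43 in control replicate 2 of 63 dpc. Ssc.31200.1.S1_at read 2.50 in methyl replicate 3 of 63 dpc, 2.24 in control replicate 2 and 2.20 in methyl replicate 4 of 91 dpc. Ssc.30893.1.A1_at read 2.33 in control replicate 4 and 2.40 in methyl replicate 1 of 63 dpc, and 3.15 in methyl replicate 5 of 91 dpc. Ssc.9605.1.A1_at read 2.26 in control replicate 3 of 91 dpc. Ssc.29185.1.A1_at read 3.07 in control replicate 2 of 63 dpc and 3.39 in methyl replicate 3 of 91 dpc. Ssc.15895.1.S1_s_at, of CYP4A21 and CYP4A24, read 5.00 in methyl replicate 6 of 63 dpc.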

How the results depend on the processing

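The 6 calls became 13 at an adjusted p under 0.10, 18 with no filter, 0 with the stricter filter (where 1 of the 6 was tested), 0 with 1 probe set per gene (where none was), 0 from the 35 dpc arrays alone, 13 and 0 from high-gap and low-gap arrays alone, 3 with EIF1AY as a covariate, and 4 to 13 when 1 array was left out, the 13 without control replicate 4. All 6 stayed called with a robust spread, no filter, quantile normalization, the batch as a block and the 3' to 5' covariate, 5 with no intensity trend, array weights or the erythroid covariate, and 2 among high-gap arrays. The 933 unadjusted differences became 1867 with no filter, 375 with 1 probe set per gene, 550 from 35 dpc alone, 315 from low-gap arrays and 677 to 1461 with 1 array left out, the last without control replicate 3. The test of age called 5 probe sets with no filter, 1 with the stricter filter, 2 after quantile normalization, 4 with array weights, 2 with the batch as a block, 2 from high-gap arrays and 0 to 6 with 1 array left out. The 48 probe sets without overlap became 21 with 1 probe set per gene, 77 to 256 with 1 array left out, and 1253 and 2490 in high-gap and low-gap arrays, where groups are smaller. The 58 list genes became 34 from 35 dpc alone, 92 and 7 from high-gap and low-gap arrays, and 41 to 99 with 1 array left out. The EIF1AY difference ran from -1.29 to -0.65.

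Signs changed only in differences that were not called. They became 0.029 for MAT2A after quantile normalization, 0.012 for TRDMT1 with EIF1AY as a covariate, 0.12 for DNMT3B, 0.10 for IGFBP1 and 0.0045 for GADD45B with array weights, and 0.0045 for IGFBP1 and -0.12 for ZBTB33 in high-gap arrays. In low-gap arrays they became -0.14 for GATA2, 0.021 for RPS24, -0.12 for AZGP1, 0.054 for CYCS, 0.21 for MTFMT, 0.056 for COQ5, -0.097 for FOLR2, 0.093 for MBD2, -0.0062 for MAT2B, -0.18 for MAT1A, -0.093 for AHCY and 0.064 for MAT2A. With 1 array left out, differences ran from -0.055 to 0.11 for AHCY, -0.49 to 0.12 for ALB, -0.27 to 0.010 for DNMT1, -0.42 to 0.0059 for DNMT3B, -0.030 to 0.83 for EPO, -0.20 to 0.32 for GADD45B, -0.047 to 0.18 for GADD45G, -0.034 to 0.17 for ICMT, -0.29 to 0.17 for IGFBP1, -0.075 to 0.094 for MAT1A, -0.13 to 0.058 for MAT2A, -0.046 to 0.18 for MAT2B, -0.0018 to 0.16 for MBD1, -0.35 to 0.043 for TRDMT1 and -0.16 to 0.43 for ZBTB33. The cause was not tested. No paired analysis was possible because the labels' replicate numbers tie no array of one diet to an array of the other.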

Other observations

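Several of the widest differences at 35 dpc lay outside the naming rule and were chosen after their values were seen. Ssc.23501.1.S1_s_at, without a symbol, read 3.73, 4.19, 7.82, 5.96 and 6.44 in control and 5.24, 6.42, 7.80, 11.59 and 11.02 in methyl livers, a difference of 2.79 ± 1.31 (adjusted p = 0.803 by limma) in which 2 methyl arrays lay far above the rest. A probe set of PTGES3, a co-chaperone of HSP90, read 6.19 ± 1.14 and 3.93 ± 1.31 (-2.25 ± 0.97, adjusted p = 0.764). PAQR8, a membrane progesterone receptor, read 6.73 ± 2.40 and 8.68 ± 0.64 (1.94 ± 0.90, adjusted p = 0.789).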
